A study of Ovis aries with 6 samples.

Results

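The matrix proteases and their inhibitors were followed in cultured sheep (Ovis aries) cells of the cornea and of the skin. Members were the gene probes whose array annotation named MMP1, MMP13, TIMP3, ADAMTS1, ADAM17, CTSK or PRSS23, together with every probe whose gene name began with MMP or TIMP and a number. This gave 12 genes with 22 of the 15008 probes on the array. Proteases held 17 probes of 10 genes (MMP1, MMP13, MMP2, MMP9, MMP14, MMP7, ADAMTS1, ADAM17, CTSK and PRSS23), and inhibitors held 5 probes of 2 genes (TIMP1 and TIMP3). The 3 corneal samples were corneal epithelial cells and the 3 epidermal samples were skin epidermal stem cells, which the design text calls cell lines. Both kinds were grown attached to the dish and lifted with trypsin before RNA extraction, and no treatment, genotype, breed or age is given in the sources used here. Each sample was hybridised to a single-colour Agilent array of 60-base probes.

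Matrix metalloproteinases (MMPs) are zinc enzymes, made as inactive precursors, that cut collagens, other matrix proteins and cell surface proteins. TIMPs are small secreted proteins that block the active site of MMPs, and TIMP3, which stays bound to the matrix, also blocks ADAM17 and several ADAMTS enzymes. In skin and cornea this balance is known for its part in wound repair, where the epithelium moves over a matrix that is cut and laid down again.

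All 6 arrays lay on a single slide and were read in a single scan, with the corneal arrays in slide row 2 and the epidermal arrays in row 1, so an effect of the row on the slide and one of the cell type cannot be told apart. Between 72.9% and 75.9% of the gene spots were well above background on corneal arrays, against 77.5% to 81.6% on epidermal arrays, and no gene spot was saturated. Correlations of log2 levels lay between 0.995 and 0.998 within a cell type and between 0.968 and 0.969 across the cell types. Levels below are log2 processed signals minus the 75th percentile of the array, and changes are corneal minus epidermal as fitted with limma over all 11740 kept probes, with Benjamini-Hochberg adjustment and a threshold of 0.05. To be kept, a probe had to be well above background on 3 or more of the 6 arrays. Nothing in the labels says that the samples of a kind came from separate animals, so the p-values measure only how these samples spread, and that spread may be technical. In RNA of whole cultures, fewer cells that make a transcript and less of it per cell cannot be told apart.

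The probe sequences show which member values are separate measurements. The paired MMP1 probes share 59 of their 60 bases, as do the paired PRSS23 and TIMP1 probes, so each such pair reads nearly the same stretch of the transcript. The MMP1 and PRSS23 pairs are printed because the largest changes with a second probe rest on them; capitals mark the base that a probe does not share with its partner. The MMP13 probe is printed because it lies over the catalytic centre, and its capitals mark the codons of the zinc-binding motif of metalloproteinases. TIMP3 probe 1 is printed, with no capitals, because it was designed on the sheep TIMP3 transcript itself. Sequences are the deposited probe sequences, 5′ to 3′.
MMP1 probe 1: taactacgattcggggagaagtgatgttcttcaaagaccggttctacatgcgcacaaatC
MMP1 probe 2: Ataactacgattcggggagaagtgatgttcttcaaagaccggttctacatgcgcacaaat
MMP13 probe 1: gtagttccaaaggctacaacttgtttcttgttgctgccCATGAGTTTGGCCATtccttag
PRSS23 probe 1: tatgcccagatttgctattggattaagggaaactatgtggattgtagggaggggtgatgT
PRSS23 probe 2: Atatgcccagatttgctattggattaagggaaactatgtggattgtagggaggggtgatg
TIMP3 probe 1: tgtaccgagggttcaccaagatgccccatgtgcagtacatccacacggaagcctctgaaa

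The zinc-binding codons stood in an open reading frame in 10 of the 15008 probes (0.067%), and MMP13 probe 1 was the only one of these among the members. Across the array 244 pairs of probes were shifted by a single base in this way, and in 158 of them both probes were kept. The changes of such partners differed by a median of 0.056 on the log2 scale, with a 95th percentile of 0.64. The MMP1 partners differed by 0.035, the PRSS23 partners by 0.041 and the TIMP1 partners by 0.13. The members' GC content ran from 35.0% to 55.0% with a median of 45.0%, against a median of 43.3% over all probes.

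The serine protease PRSS23 and the collagenases MMP1 and MMP13 were higher in corneal cells, and ADAMTS1 was lower. ADAM17, CTSK and MMP2, the last on its 3 member probes, were lower by smaller amounts, and TIMP1 and both of the brighter TIMP3 probes were higher. MMP14 did not pass the test on any of its probes, and MMP7 and MMP9 were at background. Of the 19 kept member probes, 9 were higher and 6 lower in corneal cells. Among all kept probes 59.6% were called in either direction, 26.7% higher and 32.9% lower, so most kept probes differed between these cell types. Calls in the higher direction made up 44.8% of all calls, and 22.5% where arrays were not scaled to each other, which moved the median change of all kept probes to -0.22. Changes of at least 2-fold were rarer, at 3.5% of kept probes higher and 4.27% lower. They included 6 member probes higher (both of MMP1, both of PRSS23, MMP13 and TIMP3 probe 2) and 1 lower (ADAMTS1).

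**Figure D1:**
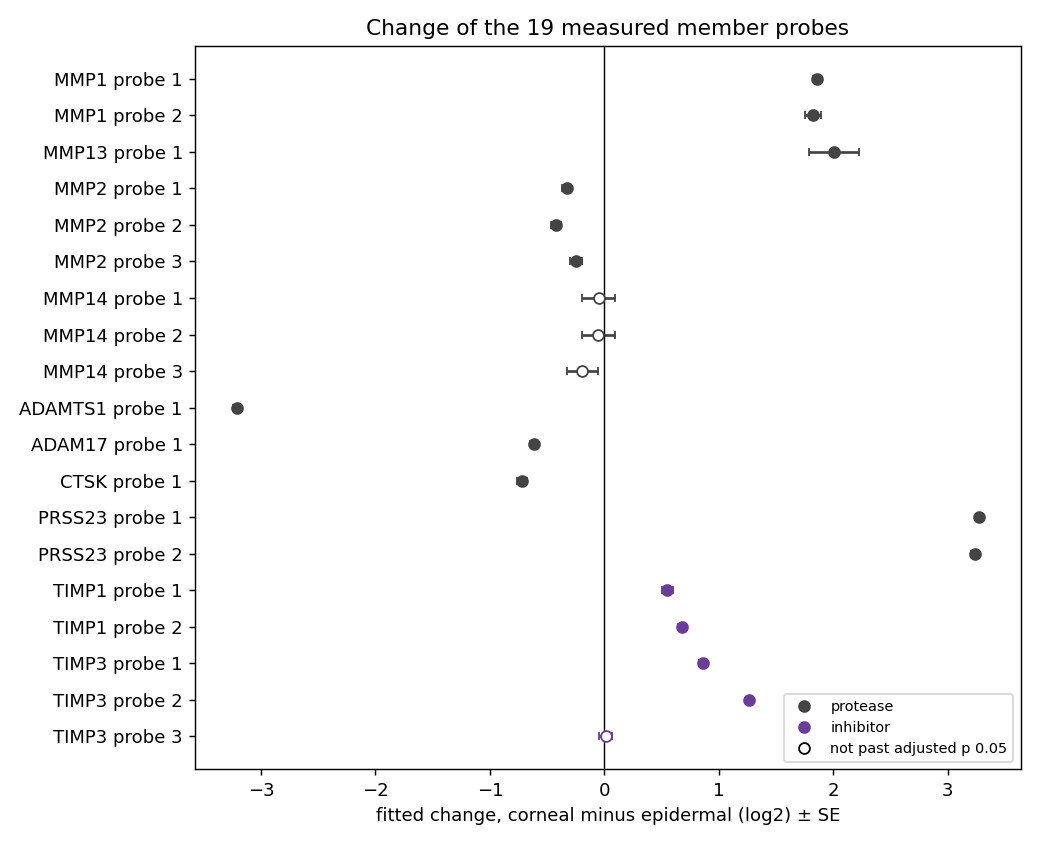
Fitted change (x axis, corneal minus epidermal, log2) of each of the 19 kept member probes (y axis), with bars of 1 SE; filled points passed an adjusted p of 0.05 and open points did not. PRSS23 lies farthest right at 3.28 and 3.23, ADAMTS1 farthest left at -3.21, and the open points are the 3 MMP14 probes and TIMP3 probe 3.

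Proteases and inhibitors were also read apart. Of the 14 kept protease probes, 5 were higher, 6 were lower and 3 were not called. Of the 5 inhibitor probes, 4 were higher, 0 were lower and 1 was not called. The median change was -0.12 over the protease probes, 0.68 over the inhibitor probes and -0.04 over all kept probes. The median size of the change, whatever its direction, was 0.68 over the member probes and 0.24 over all kept probes. The corneal and epidermal arrays did not overlap in 15 of the 19 member probes, against 67.6% of all kept probes. The members were chosen with earlier results of these data known, and that choice may favour large changes. The paired MMP1, PRSS23 and TIMP1 probes, nearly identical in sequence, also count here as separate probes. Whether proteases and inhibitors changed more than other genes was therefore not tested. Counted by gene, MMP1, MMP13, PRSS23 and TIMP1 were higher on every kept member probe. MMP2, ADAMTS1, ADAM17 and CTSK were lower on every kept member probe. A further kept probe described as MMP2, outside the rule for members, was not lower and is given below. The probes of TIMP3 were split, and those of MMP14 were not called.

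**Figure D2:**
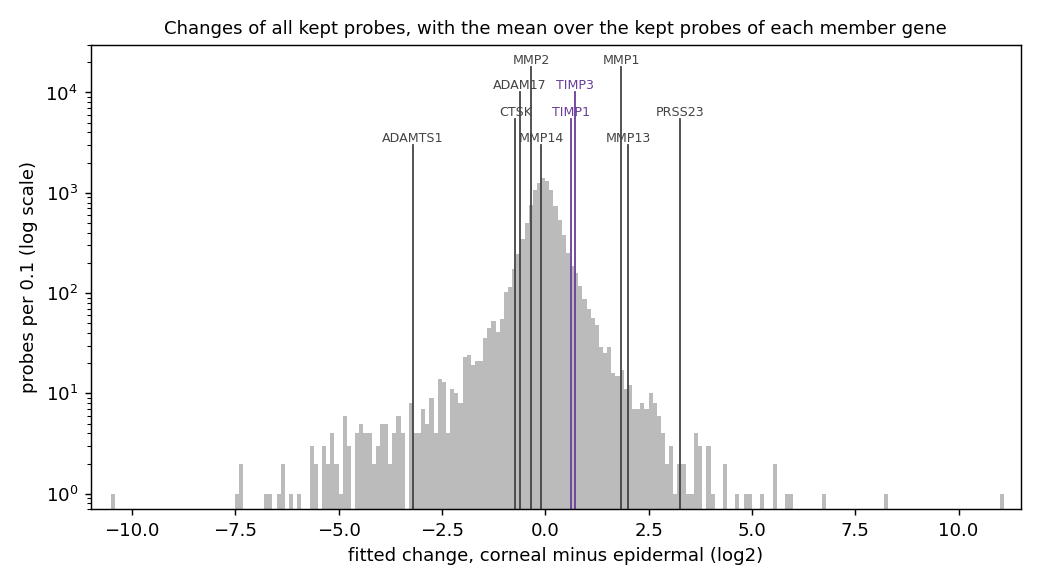
Histogram of the fitted changes of all 11740 kept probes (x axis, corneal minus epidermal, log2; y axis, number of probes per bin on a log scale). Vertical lines stand at the mean over each member gene's kept probes, dark grey for proteases and purple for inhibitors; PRSS23, MMP1, MMP13 and ADAMTS1 stand in the thin outer parts, and the other 6 genes within the central peak.

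MMP1, the interstitial collagenase that cuts fibrillar collagen and is made by keratinocytes at wound edges, was higher in corneal cells. On MMP1 probe 1 the levels were -0.91, -0.96 and -0.90 on the corneal arrays and -2.75, -2.76 and -2.83 on the epidermal arrays. All corneal arrays were above all epidermal arrays, and the arrays of a kind differed by less than 0.1. The means were -0.93 ± 0.03 in corneal cells and -2.78 ± 0.04 in epidermal cells (SD, n = 3 each). The limma change was 1.86 ± 0.04 (SE), or 3.62-fold, with an adjusted p of 1.07e-06. On MMP1 probe 2 the levels were -1.002, -0.95 and -0.91 in corneal cells and -2.69, -2.71 and -2.91 in epidermal cells, again without overlap. Its limma change was 1.82 ± 0.07 (SE), or 3.53-fold, with an adjusted p of 9.83e-06. With a normexp background correction and an offset of 50 units the changes of probes 1 and 2 were smaller, at 1.27 and 1.32, and still called. The processed signals behind probe 1 were 480, 464 and 474 intensity units on corneal arrays and 164, 142 and 137 units on epidermal arrays, well above background on all 6.

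MMP13, collagenase 3, which cuts fibrillar collagens including that of cartilage, was also higher, from a dim probe. Its levels were -4.74, -4.64 and -4.84 in corneal cells and -6.74, -7.19 and -6.32 in epidermal cells. The arrays did not overlap, and the epidermal values spread over 0.87 against 0.21 in the corneal ones. The probe was well above background on all 3 corneal arrays and on 2 of 3 epidermal arrays, the exception being epidermal replicate 2. The means were -4.74 ± 0.10 and -6.75 ± 0.44 (SD, n = 3 each) in corneal and epidermal cells. The limma change was 2.01 ± 0.22 (SE), or 4.02-fold, with an adjusted p of 0.000626. With a normexp correction and an offset of 50 units the change was 0.37, with a limma adjusted p of 0.000333. That offset is larger than the probe's processed signals, 30.9 to 36.4 units in corneal cells and 6.58 to 12.2 units in epidermal cells. Effects of the correction and of the offset were not separated. Over all alternatives run the limma adjusted p of this probe lay between 6.03e-05 and 0.00642. In the sheep RefSeq annotation of assembly ARS-UI_Ramb_v3.0 MMP13 and MMP1 lie in the same row of MMP genes, in the order MMP13, MMP12, LOC101118895, MMP1, MMP8, MMP27, MMP20 and MMP7.

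MMP7 (matrilysin), at the other end of that row, is made by many glandular epithelia, and its probes were at background. MMP7 probe 1 was well above background on 0 of 3 corneal arrays and 1 of 3 epidermal arrays, and probe 2 on none of the 6. MMP9 (gelatinase B), which cuts basement membrane collagen and is known from the migrating corneal epithelium, was not well above background on any of the 6 arrays. Its signals were 2.21, 2.88 and 2.75 intensity units on corneal arrays and 1.79, 3.69 and 1.60 units on epidermal arrays. No fold is given for these 3 probes.

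**Figure D3:**
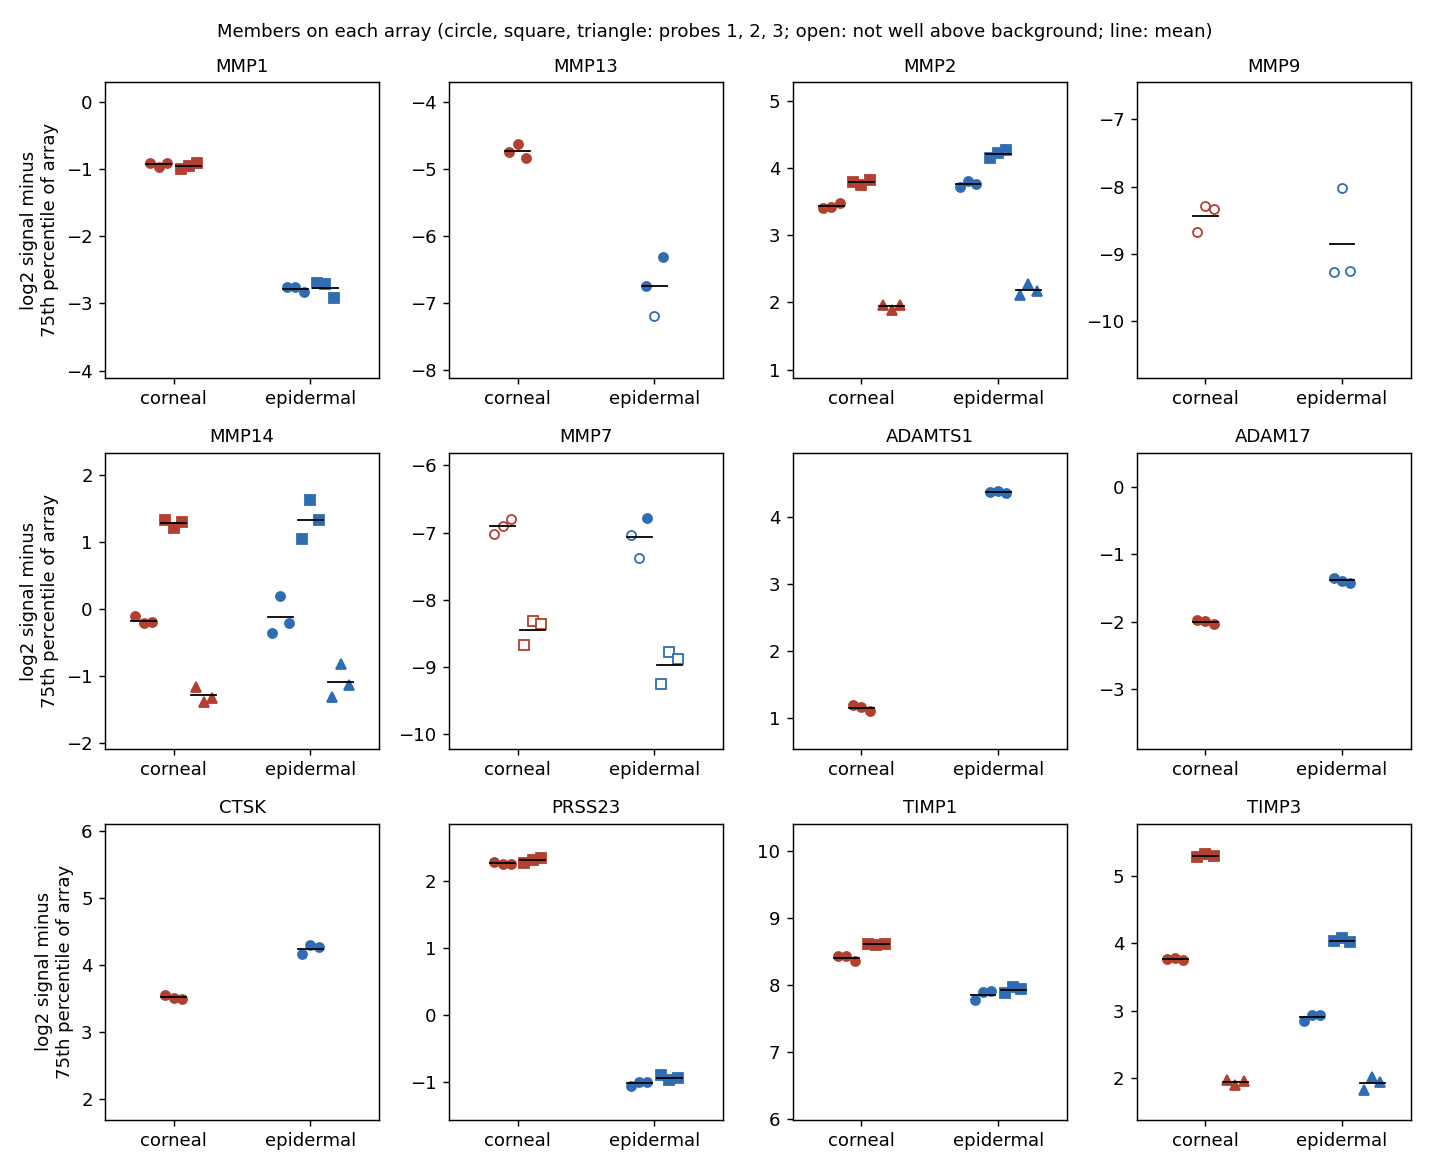
Level of each member probe on each array (y axis, log2 processed signal minus the 75th percentile of the array), with the 3 corneal arrays left (red) and the 3 epidermal arrays right (blue) in each panel; marker shapes are probes 1, 2 and 3 of a gene, open markers were not well above background, and lines are means of 3 arrays. Axes differ in position between panels. MMP1, MMP13 and PRSS23 stand higher on the left, ADAMTS1 on the right, and the MMP14 arrays overlap.

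MMP2 (gelatinase A), which cuts denatured collagen and basement membrane collagen and is typical of mesenchymal cells, was bright in both cell types. Its 3 member probes were lower in corneal cells. On MMP2 probe 2 the levels were 3.80, 3.75 and 3.82 in corneal cells and 4.15, 4.23 and 4.27 in epidermal cells, without overlap. Its limma change was -0.42 ± 0.04 (SE), with an adjusted p of 0.000421. MMP2 probes 1 and 3 had limma changes of -0.33 ± 0.04 and -0.25 ± 0.05 (SE), with adjusted p of 0.000652 and 0.00848. All 3 probes, which share no stretch of sequence, were lower on every corneal array than on any epidermal array. With no scaling between arrays the changes of probes 1, 2 and 3 were -0.50, -0.59 and -0.42. A further probe whose description, but not its gene name, is that of MMP2 falls outside the rule for members and was looked at after its values were seen. Its levels were 3.43, 3.49 and 3.53 in corneal cells and 3.07, 3.40 and 3.37 in epidermal cells, and its limma change of 0.20 ± 0.09 (SE) was not called, with an adjusted p of 0.115. The small fall of MMP2 thus held on the 3 probes named for it. That further probe went the other way, with every corneal array above every epidermal array.

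MMP14, the membrane-bound MMP that activates the MMP2 precursor at the cell surface, did not pass the test. On MMP14 probe 2 the levels were 1.33, 1.21 and 1.30 in corneal cells and 1.05, 1.62 and 1.33 in epidermal cells. The groups overlapped because epidermal replicate 2 was the highest and epidermal replicate 1 the lowest of the 6 arrays. Probe 1 had the same highest and lowest array, at 0.20 and -0.36. On probe 3 epidermal replicate 2 was again the highest, at -0.82. The limma changes of probes 1, 2 and 3 were -0.05 ± 0.14, -0.05 ± 0.14 and -0.19 ± 0.14 (SE), with adjusted p of 0.787, 0.775 and 0.263. The SD of the epidermal arrays was 0.25 to 0.29 on these probes, against a median epidermal SD of 0.065 over all kept probes. Without epidermal replicate 2 the changes were 0.11, 0.09 and -0.06, and none was called.

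**Figure D4:**
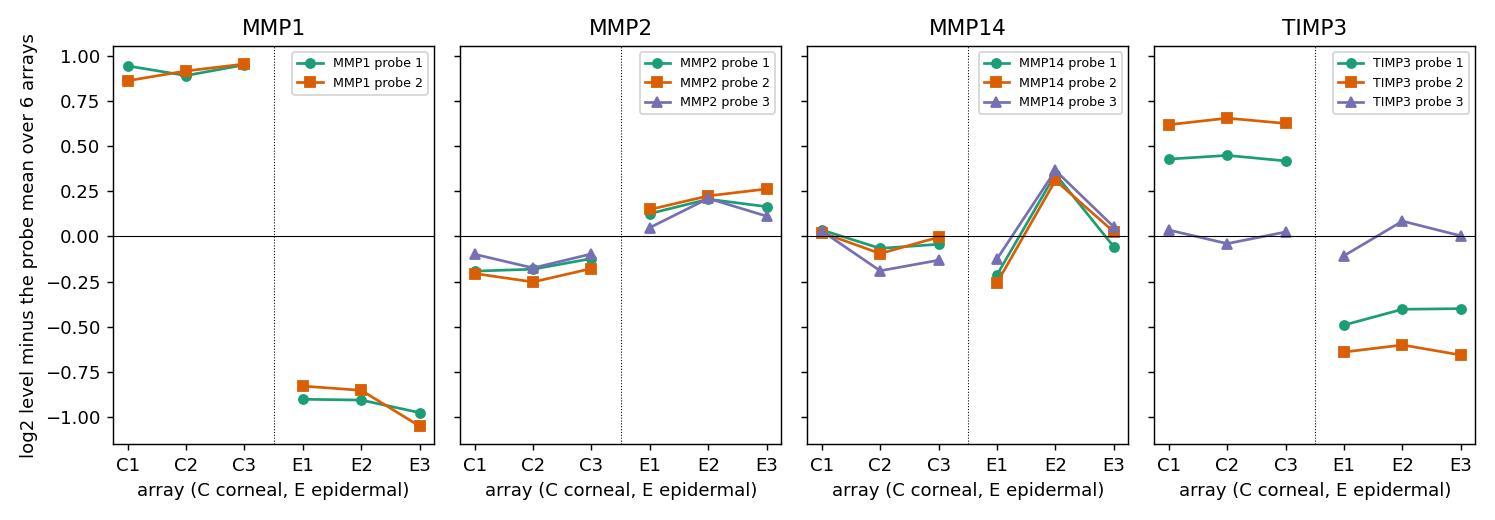
Level of each probe minus its own mean over the 6 arrays (y axis, log2) for MMP1, MMP2, MMP14 and TIMP3, with corneal replicates (C1 to C3) left and epidermal replicates (E1 to E3) right; markers and colours are the probes of a gene, and lines join arrays of a kind only to make a probe easy to follow. The MMP1 and MMP2 probes run together, the MMP14 probes share a high epidermal replicate 2, and TIMP3 probe 3 stays near 0 where probes 1 and 2 separate the cell types.

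ADAMTS1, a secreted protease with thrombospondin repeats that cuts the proteoglycans aggrecan and versican, had the largest fall among the members. Its levels were 1.20, 1.17 and 1.11 in corneal cells and 4.36, 4.39 and 4.35 in epidermal cells. The arrays of each kind lay within 0.1 of each other, with no overlap. The limma change was -3.21 ± 0.03 (SE), 9.25-fold lower, with an adjusted p of 1.6e-07, and it ranked 122 of 11740 kept probes by size. The processed signals were 2073, 2033 and 1912 units in corneal cells and 22780, 20074 and 19926 units in epidermal cells. ADAMTS5, its neighbour on the assembly, was not among the named probes analysed here.

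ADAM17, the membrane protease that releases TNF and EGF receptor ligands from the cell surface, was lower in corneal cells. Its levels were -1.98, -1.998 and -2.03 in corneal cells and -1.35, -1.39 and -1.42 in epidermal cells, without overlap. It was lower by limma with a change of -0.62 ± 0.03 (SE), 1.53-fold lower, with an adjusted p of 3.96e-05. Its probe is named from a match to the human protein. Of the 18 genes listed as ADAM17 substrates and regulators, 6 had a measured probe, of which 2 were higher, 1 was lower and 3 were not called. TNF had a measured mean of -8.10 ± 0.37 in corneal cells, where it was not well above background on any array, and of -1.64 ± 0.05 in epidermal cells (SD, n = 3 each). It was at least 25.7-fold lower in corneal cells, as a bound from 1 of its 2 probes, which was kept through the epidermal arrays, where it is high. The other TNF probe was not kept. TGFA, a ligand of the EGF receptor, was higher by 0.79 ± 0.07 (SE; limma adjusted p = 0.000327), and TNFRSF1A, a TNF receptor, by 0.35 ± 0.08 (SE; limma adjusted p = 0.0118). The TNFRSF1A call was lost when arrays were not scaled to each other, and the change of 0.18 on its other probe was not called.

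CTSK, cathepsin K, a lysosomal cysteine protease best known for cutting collagen in osteoclasts, was lower in corneal cells. Its levels were 3.56, 3.51 and 3.50 in corneal cells and 4.16, 4.30 and 4.27 in epidermal cells, without overlap. The fitted limma change was -0.72 ± 0.05 (SE), 1.65-fold lower, with an adjusted p of 7.05e-05. Its probe is named from a match to the bovine protein. ACP5, an osteoclast enzyme, averaged -4.42 ± 0.13 and -4.45 ± 0.22 (SD, n = 3 each) in corneal and epidermal cells, and its change of 0.04 was not called (limma adjusted p = 0.818). Both genes of the immune and osteoclast marker list with a probe were above background on all arrays, with a summed level of 1.63 to 1.68 in corneal cells and 1.98 to 2.14 in epidermal cells, in multiples of the 75th percentile of the array. CD14, a monocyte marker, made up most of it and fell by 0.30 on the log2 scale in corneal cells (limma adjusted p = 0.00113), and its part in the CTSK result was not tested.

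PRSS23, a secreted serine protease whose substrates are little known, had the largest rise among the members. On PRSS23 probe 1 the levels were 2.27, 2.25 and 2.25 in corneal cells and -1.06, -0.9999 and -0.995 in epidermal cells. Every corneal array stood more than 3 log2 units above every epidermal array. The limma change was 3.28 ± 0.03 (SE), or 9.68-fold, with an adjusted p of 1.5e-07, and it ranked 117 of 11740 by size. On PRSS23 probe 2 the levels were 2.26, 2.30 and 2.34 in corneal cells and -0.90, -0.97 and -0.94 in epidermal cells. Its limma change was 3.23 ± 0.03 (SE), or 9.41-fold, with an adjusted p of 1.6e-07. The processed signals of probe 1 were 4368, 4311 and 4206 units in corneal cells and 531, 480 and 488 units in epidermal cells.

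TIMP1, the soluble inhibitor of most MMPs, gave strong signals in both cell types and was higher in corneal cells. On TIMP1 probe 2 the levels were 8.62, 8.60 and 8.61 in corneal cells and 7.89, 7.97 and 7.94 in epidermal cells, without overlap. This gave a limma change of 0.68 ± 0.03 (SE), or 1.60-fold, with an adjusted p of 2.55e-05. On TIMP1 probe 1 the levels were 8.43, 8.43 and 8.36 in corneal cells and 7.77, 7.90 and 7.91 in epidermal cells, and the limma change was 0.55 ± 0.05 (SE), with an adjusted p of 0.000247. Neither probe was saturated. TIMP1 overlaps SYN1, ARAF and ZNF81 on the assembly, and TIMP3 overlaps SYN3.

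TIMP3, the matrix-bound inhibitor, gave different answers on its 3 probes, which came from separate sequence records. On TIMP3 probe 1 the levels were 3.77, 3.79 and 3.76 in corneal cells and 2.85, 2.94 and 2.94 in epidermal cells, without overlap. Here limma gave a change of 0.86 ± 0.04 (SE), or 1.82-fold, with an adjusted p of 1.51e-05. On TIMP3 probe 2, named from a match to the dog protein, the levels were 5.29, 5.33 and 5.30 in corneal cells and 4.03, 4.07 and 4.02 in epidermal cells, without overlap. This probe had a limma change of 1.26 ± 0.03 (SE), or 2.40-fold, with an adjusted p of 1.94e-06. On TIMP3 probe 3, named from a match to the bovine protein, the levels were 1.96, 1.89 and 1.95 in corneal cells and 1.82, 2.01 and 1.93 in epidermal cells. These arrays overlapped, and the limma change of 0.01 ± 0.06 (SE) was not called, with an adjusted p of 0.858. The changes of the 3 probes spanned 1.25 on the log2 scale, against 0.15 for the 3 MMP14 probes and 0.18 for the 3 MMP2 probes. All 3 TIMP3 probes were well above background on all 6 arrays.

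Other proteases and inhibitors were taken from fixed lists, each gene on its brightest kept probe. Only probes with a gene name could be counted, and 13654 probes had none. Beside the counts below, 26.7% of all kept probes were called higher and 32.9% lower. In the plasminogen system, which makes plasmin and through it activates MMP precursors, 6 of 11 listed genes were measured, with 1 higher, 4 lower and 1 not called in corneal cells. PLAT, the tissue plasminogen activator, was higher by 0.63 ± 0.03 (SE). SERPINB2, an inhibitor of plasminogen activators, fell by 0.60, PLAU (urokinase) fell by 0.59 and its receptor PLAUR fell by 0.53 on the log2 scale. The limma adjusted p of these 4 genes lay between 2.57e-05 and 0.000151.

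Among the cathepsins, 6 of 15 listed genes were measured, with 2 higher, 2 lower and 2 not called. CTSD, the lysosomal aspartic protease, was higher by 2.30 ± 0.06 (SE; limma adjusted p = 2.23e-06), and CTSA, a lysosomal carboxypeptidase, by 0.77 ± 0.06 (SE; limma adjusted p = 0.000167). CTSS, the cysteine protease next to CTSK on the assembly, fell by 1.76 on its brighter probe, and the change of -0.28 on the other was not called. LGMN, which activates cathepsin precursors, was lower by 0.71 ± 0.04 (SE; limma adjusted p = 2.69e-05). Of 18 genes listed as cystatins and other inhibitors, 4 were measured, with 0 higher, 3 lower and 1 not called. SERPINF1, counted by its serpin family and not by inhibitory activity, fell by 1.60 on the log2 scale. SLPI, an epithelial inhibitor of neutrophil elastase, fell by 1.18 and SPINT2, an inhibitor of membrane serine proteases, fell by 0.26. The limma adjusted p of these 3 genes lay between 5.72e-06 and 0.000652.

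Of 19 other serine and membrane proteases, 4 were measured, with ECE1 higher by 0.76 ± 0.11, MME by 0.62 ± 0.04 and ANPEP lower by 0.30 ± 0.05 (SE), with limma adjusted p of 0.00199, 0.00011 and 0.00458. The remaining gene, FURIN, which cuts the MMP14 precursor, was not called and had a change of 0.03 ± 0.14 (SE; limma adjusted p = 0.877). From the list of 28 further ADAM and astacin proteases ADAM19 alone was found among the named probes, and its change of -0.03 was not called (limma adjusted p = 0.691).

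Of 23 genes for matrix proteins that these enzymes cut, 14 were measured, with 4 higher, 7 lower and 3 not called in corneal cells. COL3A1, a fibrillar collagen of skin, averaged 2.31 ± 0.03 and 6.82 ± 0.07 in corneal and epidermal cells (SD, n = 3 each), and fell by 4.51 ± 0.05 (SE; limma adjusted p = 1.64e-07). TNC, tenascin C, fell by 2.29 and COL1A1 fell by 0.54 on the log2 scale, with limma adjusted p of 2.32e-06 and 0.000612. The change of -0.24 on the other COL1A1 probe was not called. BGN, a small proteoglycan, was higher by 1.32 ± 0.06, FN1, fibronectin, by 0.95 ± 0.03 and COL5A2 by 0.74 ± 0.04 (SE), with limma adjusted p between 7.79e-06 and 2.37e-05. Of the genes counted here, 3 looked at after their values were seen had calls that other settings ended. COL4A2, counted as higher, had a change of 0.14 that was -0.03 when arrays were not scaled to each other, and it lost its call without any of 5 single arrays. The changes of the 4 COL4A2 probes ran from -0.15 to 0.14, and 1 of them was called. COL4A1, at -0.21, lost its call under median scaling and without any of 4 single arrays, and COL2A1, at -0.24, lost its call under both normexp corrections.

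AP-1 and ETS factors and cytokines, listed for their part in MMP regulation, were measured for 10 of 19 genes, with 2 higher and 8 lower. The shares over all kept probes were 26.7% higher and 32.9% lower. Whether this list changed more than other genes, or had a part in the MMP changes, was not tested. ETS2, counted as lower at -0.19, was not called on its other probe, at -0.09. IL1A fell by 1.56, FOS fell by 0.98 and TGFB1 fell by 0.83 on the log2 scale, with limma adjusted p between 5.99e-06 and 1.81e-05. The changes of the 4 FOS probes ran from -0.98 to -0.35, and 3 of them were called. JUND was higher by 0.37 ± 0.04 and IL1B by 0.24 ± 0.03 (SE), with limma adjusted p of 0.000858 and 0.00149, and the IL1B call was lost when arrays were not scaled to each other.

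For each of the 7 genes listed by name, the named probes with the most similar profile over the 6 arrays were found among 913 candidates, by the root mean square difference of levels centred on each probe's mean. MMP1 was closest to TF and HBB, at 0.085 and 0.088. MMP13 was closest to INHA and NPY1R, at 0.17 and 0.19. ADAMTS1 was closest to OXT and MYLK, at 0.099 and 0.13, and PRSS23 to TTR and ANKRD1, at 0.17 and 0.19. ADAM17 was closest to MYC and FHIT, at 0.031 and 0.032, and CTSK to CD1D and RILPL2, at 0.027 and 0.030. TIMP3 probe 2 was closest to ABCG2 and MX1, at 0.013 and 0.018. With 2 groups of arrays this measure mostly finds probes with a change of like size and direction, such as ABCG2, which was higher by 1.26, and MX1, which was higher by 1.27.

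The cell type labels were set against markers. Of the 4 keratinocyte markers with a probe, TP63 was not well above background on any array, KRT14 was so on 0 of 3 corneal and 2 of 3 epidermal arrays, and KRT15 and DSP each on 1 of 3 corneal and 3 of 3 epidermal arrays. Their summed level was 0.034 to 0.043 in corneal cells and 0.041 to 0.051 in epidermal cells, in multiples of the 75th percentile of the array. PAX6, a factor of the eye, was higher in corneal cells by 0.31 ± 0.07 (SE; limma adjusted p = 0.0128), a call lost when arrays were not scaled to each other. All 6 mesenchymal markers with a probe were well above background on all arrays, with a summed level of 921 to 943 in corneal cells and 957 to 1191 in epidermal cells, VIM, DCN and COL1A2 among them. Keratinocyte markers were thus near background in cells labelled as epithelial, and mesenchymal markers were bright in both kinds. On the brightest kept probe of each gene, VIM, DCN and COL1A2 were not called between the cell types, and COL1A1, COL3A1 and LUM were lower in corneal cells. The other DCN probe was called lower in corneal cells, at -0.44 (limma adjusted p = 0.000121). The part of these markers in the changes of the proteases and inhibitors was not tested.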

How the data were processed

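Gene expression was measured on 6 single-colour Agilent sheep arrays. Per the submitters' processing notes, the scanner software was Agilent Feature Extraction 10.7. Per the file headers the deposited processed signal is a linear intensity with its background subtracted. A table of log2 values deposited by the authors comes with no account of how it was made. Its columns all had a median of 7.23 and each correlated at 0.999 or more, after rounding, with the same array's processed signal on a log2 scale, so its values are on a log2 scale and were not centred by gene; they served as an alternative.

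Control spots and spots marked as outliers were left out. The log2 processed signal minus the array's 75th percentile was tested two-sided with lmFit and eBayes of limma 3.58.1 (R 4.3.3) on the 11740 kept probes, corneal minus epidermal, with Benjamini-Hochberg adjustment over all of them. The procedure was tested on simulated data. Where no array of a group had a probe well above background, the fold is a bound: the mean of the brighter group over the dimmer group's floor, which takes on each array the larger of the probe's signal and the lowest signal well above background. Precision is limited by the number of arrays.

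Gene names came from the arrays' annotation and from a RefSeq table (assembly ARS-UI_Ramb_v3.0, used for names and neighbours), by accession for 755 probes, symbol for 514, synonym for 18 and description for 45, and 13654 probes stayed without a name. Every member probe is given. From each list the text names up to 3 called genes of largest change in each direction. The members and lists were chosen with earlier results of these data known. Same-numbered corneal and epidermal replicates did not deviate together (correlations of 0.017, -0.029 and 0.038 over 11727 probes), so the numbers were not used as pairs. Promoter and protein sequences were not used here, and some items of the lists are not reported here. Alternatives covered background correction, scaling, the authors' values, the filter on dim probes, 1 probe per gene, the variance model, the replicate block and leaving out each array.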

Additional observations from a re-analysis of the deposited data

How the results depend on the processing

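Over 18 alternatives, 324 of 332 member changes kept their direction and their side of the threshold, and 15 of the 19 member probes did so in every alternative run. The exceptions were on probes that were not called. TIMP3 probe 3 changed by -0.0048 with either normexp correction, by -0.16 without scaling, by -0.0014 without corneal replicate 1 and by -0.037 without epidermal replicate 1, and leaving out each array gave -0.037 to 0.058. For MMP14 probes 1 and 2 leaving out each array gave -0.17 to 0.11 and -0.19 to 0.090, with the high ends without epidermal replicate 2, and MMP14 probe 3 was called without scaling, at -0.37 (limma adjusted p = 0.0205, the lowest of a range up to 0.603). Without scaling between arrays 1535 probes were called higher and 5295 lower, so 22.5% of calls were higher, against 44.8% with scaling to the 75th percentile, and the median change was -0.22 against -0.04. The other scalings gave 48.8% to 50.4%. With 1 probe per gene, 3 protease and 2 inhibitor probes were called higher, as fewer probes were tested. Without the filter on dim probes 6 protease probes were called higher against 5, and the further one was outside the 19 kept. With only probes above background on all 6 arrays 4 were called higher, as MMP13 was not tested. Leaving out each array in turn gave 2765 to 3056 higher and 3372 to 3731 lower calls. With the replicate number as a block, 2771 probes were higher and 3452 lower, and no member call changed. Among the members MMP13 moved most under the 2 normexp settings, to 0.37 and 0.44. Both settings add an offset of 50 units, which is more than the processed signal of this probe on any array. Effects of the background correction and of the offset were not separated. Other members also shrank: with normexp on all spots MMP1 probes 1 and 2 changed by 1.27 and 1.32 and ADAM17 by -0.44, all still called. Normexp also shrank the changes of some dim genes outside the members (PLAU -0.28, CTSS -0.81, TNC -1.21, TGFA 0.25, FOS -0.61, TNF -2.11 against -6.47), which were still called, while COL2A1 (-0.057) and VWF (-0.052) lost their calls. Dim probes (MMP13, MMP7, MMP9) limit what can be said of low transcripts.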
